A study of Drosophila melanogaster with 8 samples.

Results

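The comparison described here is DmSTING knockdown in Drosophila melanogaster S2 cells that had received c-di-GMP. S2 is an embryo-derived line with properties of plasmatocytes, the macrophage-like blood cells of the fly. The study profiled 8 samples on Affymetrix 3' expression arrays and asked how DmSTING alters what c-di-GMP does in these cells. Of the 8 samples, the 4 whose titles name c-di-GMP were compared, 2 given DmSTING dsRNA against 2 given scrambled dsRNA. All samples were first transfected with dsRNA by the lipid reagent Cellfectin II, and the scrambled samples had therefore also taken up long dsRNA and lipid. After 72 h the cells were transfected a second time, with c-di-GMP in the 4 samples compared and with the lipid alone in the 4 mock samples, and total RNA was taken 24 h later. The 4 mock samples, 2 of each dsRNA, serve as the level without c-di-GMP. The genotype field of the labels follows the treatment and contradicts the title and the source name in 4 samples, so the titles were used. Nothing in the labels says that replicates 1 and 2 of a group were separate cultures, and p-values therefore speak only to the spread among these arrays, which could be technical.

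Cyclic di-GMP is a signalling nucleotide made by bacteria. STING is a membrane protein of the endoplasmic reticulum that binds cyclic dinucleotides. In flies it acts through the kinase IKKbeta and the NF-kappaB factor Relish, which also form the end of the IMD pathway that answers bacterial peptidoglycan. Relish drives antimicrobial peptides, recognition proteins that bind or cleave peptidoglycan, and proteins that switch the pathway off again.

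The values are log2 units relative to the median of each probe set over the 8 samples, so differences between samples can be read and expression levels cannot. Probe sets of 1 gene were averaged, which gave 11009 genes. Between replicates, the SD over genes of the difference was 0.196 in the DmSTING c-di-GMP group and 0.234 in the scrambled c-di-GMP group, against 0.119 and 0.166 in the corresponding mock groups. The spike-in RNAs added for hybridisation moved with the dsRNA: 18 of 18 of their probe sets were lower in both DmSTING arrays than in both scrambled arrays under c-di-GMP, with a median log2 difference of -0.71, and 18 of 18 under mock, with a median of -1.42. The 24 control probe sets for dap, lys, phe and thr were less uniform. Of them 5 were lower in both DmSTING arrays under c-di-GMP and 14 under mock, with medians of -0.19 and -0.25. The part of these controls in the results was not tested. Over all genes the median log2 difference between the dsRNAs was 0.03 under c-di-GMP and 0.01 under mock.

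Many of the genes described below differed between the 2 DmSTING c-di-GMP replicates, and their values are therefore given by replicate. Of the 11009 genes, 31 (0.282%) were at least 1 log2 unit apart between these replicates, 30 of them higher in replicate 2. In the scrambled c-di-GMP group 20 genes (0.182%) were that far apart, 16 of them higher in replicate 2, and CG13488 was in both sets. Among the 41 measured genes of the antimicrobial peptide, Toll effector, peptidoglycan recognition and IMD lists, 10 were higher in DmSTING replicate 2 by at least 1.

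Sting, the targeted gene, fell under c-di-GMP to 40.3% of its level in scrambled samples, taking the logarithm as base 2. Its log2 values were 0.57 and 0.46 in the scrambled samples and -0.84 and -0.75 in the DmSTING samples. Both DmSTING samples lay well below both scrambled samples and close to each other. In bulk RNA, fewer cells with a transcript and less of it per cell cannot be told apart. The log2 change was -1.31 (SE 0.07, n = 2 per group, limma adjusted p = 0.00281). It was the 1 gene of 11009 called at an adjusted p under 0.05 (0.00908%). An exact permutation test of 2 samples against 2 cannot go below p = 0.333, so the call rests on the spread shared across groups and genes. In a fit of the 4 c-di-GMP samples alone the adjusted p was 0.365, and after quantile normalization of the arrays the change was -1.12 with an adjusted p of 0.536. Without DmSTING c-di-GMP replicate 1 the change was -1.26, with an adjusted p of 0.0632.

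The depth of the knockdown was close to that in cells without c-di-GMP. In the mock samples Sting read 0.81 and 0.83 with scrambled dsRNA and -0.48 and -0.46 with DmSTING dsRNA, a change of -1.29, and it was again the 1 called gene (0.00908%). That call was lost without any 1 of the 4 mock samples and after quantile normalization. The 2 changes differed by -0.02 (SE 0.10, limma adjusted p = 0.999). The 6 measured genes nearest to Sting in the gene order of the reference table, 3 on each side, ranged from -0.06 to 0.37 under c-di-GMP, and none was called. The highest was Lsm11, a component of the U7 snRNP that processes histone mRNA.

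Beyond Sting, no gene below its scrambled level passed the test over both replicates. There were 20 genes lower by 1 log2 unit or more under c-di-GMP and 0 higher by as much, whereas under mock Sting was the single gene of that size. Of the 20, 7 belonged to the peptide, Toll effector, recognition and IMD lists, and others, such as CG8519, CG32373 and CG7296, have no assigned function here. At an unadjusted p under 0.05, 472 genes were lower (4.29%) and 1039 higher (9.44%) under c-di-GMP, and the smallest adjusted p after that of Sting was 0.209. The higher share of these genes, 68.8%, was 58.8% after quantile normalization and 62.2% with each array centred on its median. DmSTING samples lay entirely below scrambled samples at 1681 genes (15.3%) and entirely above at 2949 (26.8%).

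**Figure D1:**
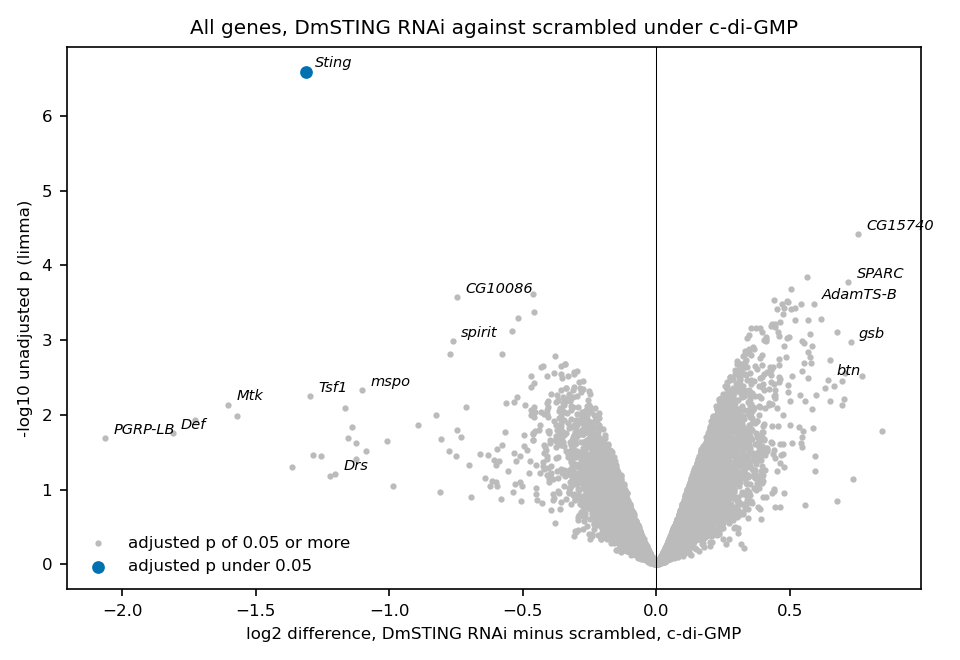
Each point is 1 of 11009 genes. The horizontal axis is the log2 difference, DmSTING RNAi minus scrambled RNAi, in c-di-GMP-treated cells, and the vertical axis is -log10 of the unadjusted limma p. Sting stands alone at the top at -1.31. The genes with larger negative differences, such as PGRP-LB at -2.06, sit low on the plot.

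PGRP-LB, an amidase that cleaves peptidoglycan and restrains the IMD pathway, had the largest difference of any gene. It read 2.52 and 2.67 in the scrambled c-di-GMP samples and -0.79 and 1.85 in DmSTING replicates 1 and 2. Replicate 1 was below all 4 mock samples, which ran from -0.11 to 0.05, and replicate 2 was above the mock samples and below both scrambled c-di-GMP samples. The log2 difference was -2.06 (SE 0.70, limma adjusted p = 0.319). With replicate 1 alone it was -3.38 and with replicate 2 alone -0.74. In these and the following estimates from 1 DmSTING c-di-GMP sample, that sample is assumed to vary like the other groups. That did not hold at PGRP-LB, where the DmSTING c-di-GMP replicates were 2.64 apart and the scrambled c-di-GMP replicates 0.15. At such genes the p-values of these fits are too small.

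PGRP-SB1, a second amidase, and PGRP-LF, a membrane protein that holds the IMD receptor inactive, had the same arrangement. PGRP-SB1 read 1.004 and 1.29 in scrambled samples and -1.06 and 0.79 in DmSTING samples, a difference of -1.29. PGRP-LF read 0.12 and 0.18 against -0.87 and 0.11. For both genes replicate 1 was below every mock sample, and the groups did not overlap, by only 0.01 log2 units for PGRP-LF. Of the 9 measured members of the list of peptidoglycan recognition and Gram-negative binding proteins (GNBP), 0 were called. The median difference was -0.16, beside 0.03 over all genes. At an unadjusted p under 0.05, 3 were lower and 0 higher, beside 4.29% and 9.44% of all genes. The 3 were PGRP-LB, PGRP-SB1 and GNBP3, whereas PGRP-LF had an unadjusted limma p of 0.0846. GNBP3, a sensor of fungal glucan, was at -0.16, alike in both replicates at -0.21 and -0.22 against -0.04 and -0.07.

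The 6 measured IMD-dependent antimicrobial peptides were all lower in both DmSTING samples than in both scrambled samples, as were 15.3% of all genes. Their median difference was -1.07, beside 0.03 over all genes, and it was -0.66 after quantile normalization. It was -1.86 with replicate 1 alone and -0.29 with replicate 2 alone. None of the 6 was called, and 5 were lower at an unadjusted p under 0.05, beside 4.29% of all genes.

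Mtk encodes metchnikowin, a peptide active against fungi and bacteria. It read 2.37 and 2.24 in scrambled samples and -0.10 and 1.50 in DmSTING samples, with mock samples from -0.22 to 0.01. Replicate 1 thus lay within the mock range and replicate 2 lay 0.74 below the lower scrambled sample. The difference was -1.60 (SE 0.43, limma adjusted p = 0.287). It was -2.40 with replicate 1 alone and -0.80 with replicate 2 alone.

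Def, which encodes defensin, read 1.58 and 1.99 against -1.12 and 1.07, a difference of -1.81. CecB, a cecropin, read 1.68 and 1.92 against -0.61 and 1.47, a difference of -1.37. In both genes replicate 1 was below all mock samples, and replicate 2 was below the scrambled samples by less than the gap between the DmSTING replicates. AttD, an attacin, read 1.11 and 0.99 against -0.26 and 0.80. The remaining members were edin, an immune-induced secreted peptide, at 0.67 and 0.85 against -0.52 and 0.54, and DptB, a diptericin, at 0.30 and 0.32 against -0.44 and 0.23. Probe sets of the other 8 peptides of the list name several genes or none and were not used.

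**Figure D2:**
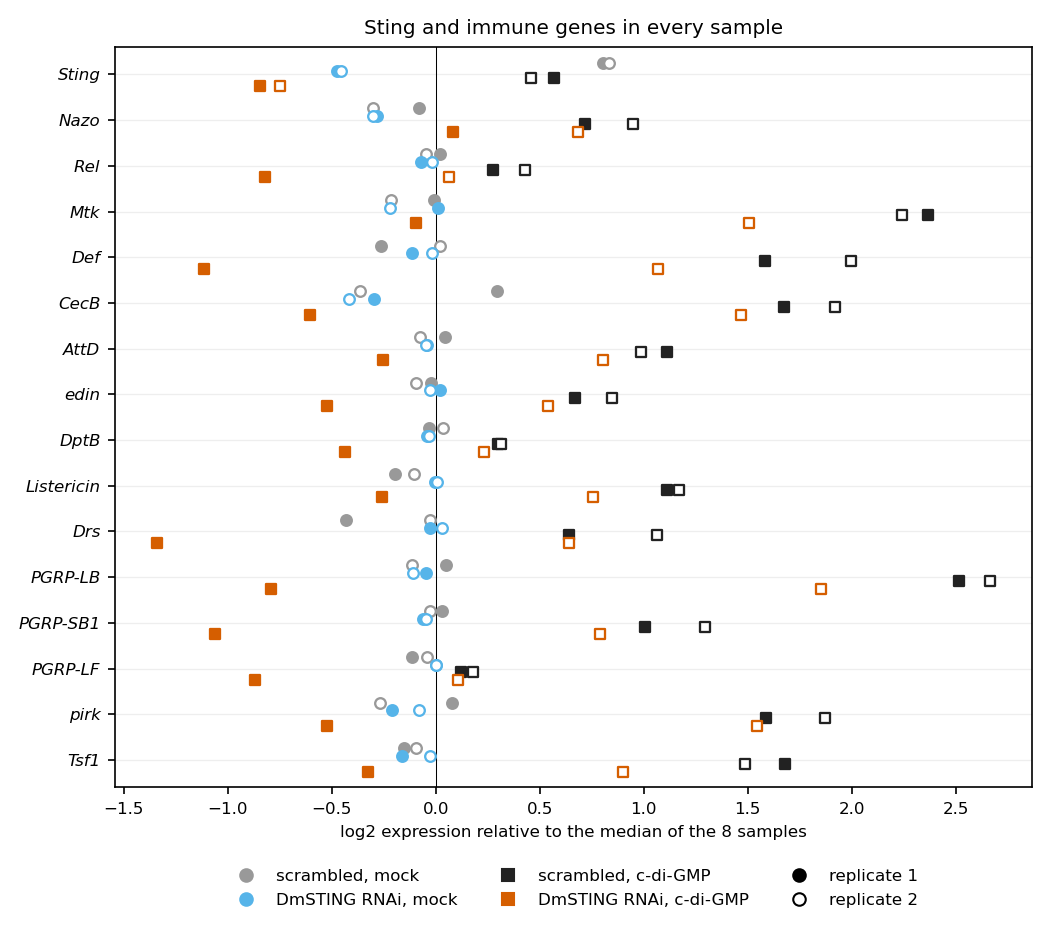
Log2 expression relative to the median of the 8 samples, with 1 point per sample, coloured by group and filled for replicate 1 and open for replicate 2. Sting is low in both DmSTING c-di-GMP samples, whereas at most other genes drawn replicate 1 sits at or below the mock samples and replicate 2 is higher. Replicate 2 is level with the lower scrambled c-di-GMP sample at Drs. It is below both at PGRP-LB, at 1.85 against 2.52 and 2.67, and just above the mock samples at Rel, at 0.06 against 0.28 and 0.43. At Nazo replicate 1 is above the mock samples.

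The list labelled Toll-dependent effectors was split, and the dependence of its members on Toll was not tested here. Drs, the antifungal peptide drosomycin, read 0.64 and 1.07 in scrambled samples and -1.34 and 0.64 in DmSTING samples, and replicate 2 was level with the lower scrambled sample. Listericin, an antibacterial peptide, read 1.11 and 1.17 against -0.26 and 0.76, a difference of -0.89. A pair of bomanins, small secreted peptides induced by Toll, differed in another way: BomT2 read 0.37 and 0.21 against -0.11 and -0.01, and BomS4 read 0.90 and 0.27 against 0.14 and -0.16. For both bomanins the DmSTING replicates were close to each other. Not all bomanins were lower: BomBc2, BomBc3 and BomT3 were at 0.05, -0.02 and 0.15, none of them at an unadjusted limma p under 0.05. Of the 8 measured members of this list 0 were called, and the median was -0.30. At an unadjusted p under 0.05, 4 were lower and 0 higher, beside 4.29% and 9.44% of all genes. The 4 were Listericin, BomT2, BomS4 and another bomanin, BomS5, at -0.26, whereas Drs had an unadjusted p of 0.0624.

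Of the signalling components, Rel and pirk had the largest differences. Rel, which encodes Relish, read 0.28 and 0.43 against -0.82 and 0.06, a difference of -0.73 (SE 0.24, limma adjusted p = 0.313). Replicate 1 was below all mock samples, which ran from -0.07 to 0.02, and replicate 2 was just above them. The gene pirk, which encodes an inhibitor that removes the peptidoglycan receptor from the cell surface, read 1.59 and 1.87 against -0.53 and 1.55, with an unadjusted p of 0.0647. Of the 18 measured IMD components and brakes 0 were called, and the median was -0.02. At an unadjusted p under 0.05, 2 were lower and 0 higher, beside 4.29% and 9.44% of all genes. The 2 were Rel and ben, a ubiquitin-conjugating enzyme, at -0.23 under c-di-GMP and -0.25 under mock. The 13 measured components of the Toll pathway ranged from -0.09 to 0.20, and 0 of them were below an unadjusted p of 0.05.

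Of the genes tied to STING itself, Nazo, an antiviral gene downstream of Sting in flies, read 0.72 and 0.95 against 0.08 and 0.68. Replicate 1 was above all 4 mock samples, which ran from -0.30 to -0.08, and replicate 2 was just under the lower scrambled sample. The difference was -0.45 (SE 0.19, limma adjusted p = 0.359). The 2 cGAS-like receptors, enzymes that make cyclic dinucleotides for STING, differed in direction without passing the test: cGlr1 was at 0.36 (adjusted p = 0.303) and cGlr2 at -0.24 (adjusted p = 0.392). For cGlr2 the difference under mock was -0.29. Srg2, a further gene regulated by Sting, had groups that overlapped, at -0.50 and 0.38 against -0.57 and -0.04. IKKbeta was at 0.04 and its groups overlapped too. Of the 7 measured STING-linked genes 1 was called, Sting itself, and the median was -0.24. At an unadjusted p under 0.05, 3 were lower and 1 higher, beside 4.29% and 9.44% of all genes.

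Tsf1, a secreted transferrin that withholds iron, was the lowest member of the iron list. It read 1.68 and 1.49 in scrambled samples and -0.33 and 0.90 in DmSTING samples, and the difference was -1.30 (SE 0.33, limma adjusted p = 0.282). Replicate 2 was 0.59 below the lower scrambled sample and well above the mock samples. Mvl, a metal transporter of the NRAMP family, was at -0.51 with groups 0.01 apart. The 9 members of the list had a median of -0.04, with 0 called. At an unadjusted p under 0.05, 2 were lower and 0 higher, beside 4.29% and 9.44% of all genes.

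Several uncharacterised genes had values like those of the peptides. CG8519 read 2.31 and 2.51 in scrambled samples and -0.25 and 1.61 in DmSTING samples, and CG32373 read 2.10 and 2.28 against -0.23 and 1.47. For both genes replicate 1 lay within the mock range and replicate 2 was 0.70 and 0.64 below the lower scrambled sample. The gene mspo, which encodes a secreted protein of the spondin family, read 0.86 and 0.92 against -0.72 and 0.28, a difference of -1.10 (SE 0.27, adjusted p = 0.279). CG15282 did not separate the groups, at 1.14 and 1.86 against -0.33 and 1.36.

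**Figure D3:**
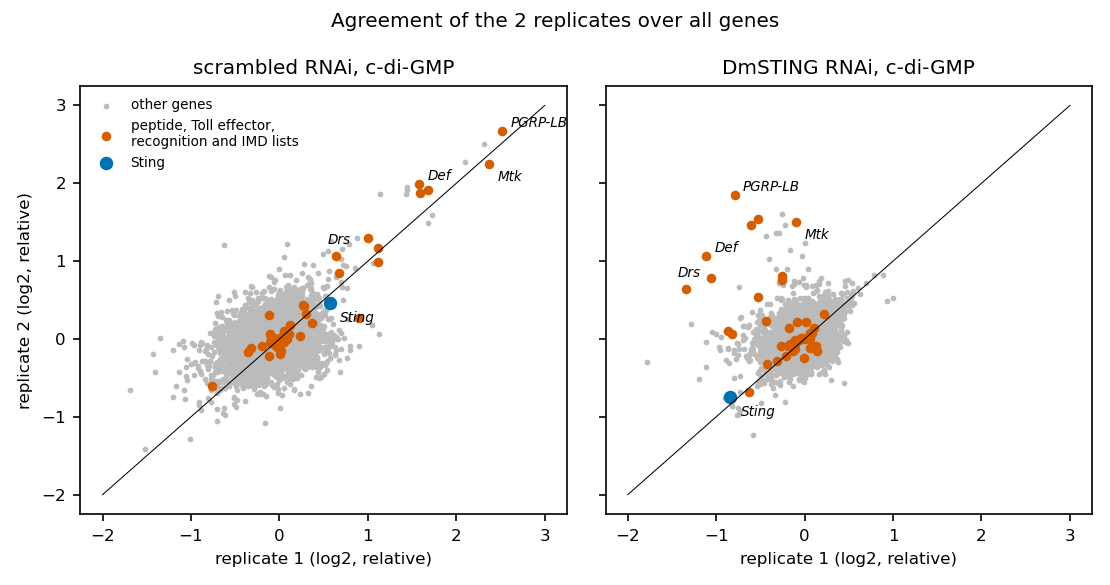
Replicate 2 against replicate 1, in log2 units relative to the median of the 8 samples, for the 11009 genes in the scrambled c-di-GMP group (left) and the DmSTING c-di-GMP group (right); the line marks equal values. Of the coloured peptide, Toll effector, recognition and IMD genes, those with the highest values on the left, such as PGRP-LB, Mtk and Def, lie far above the line on the right, and others stay near it. Sting lies near the line in both.

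Leaving out 1 or the other DmSTING c-di-GMP replicate changed how many genes were called. Without replicate 2, 34 genes were called by limma, 31 lower (0.282%) and 3 higher (0.0273%). Without replicate 1, 0 were called (0.0%), so that Sting was lost too, and 1133 were below an unadjusted p of 0.05. The lower genes other than Sting numbered 30 and included PGRP-LB, Def, CG8519, CG32373, CecB, Mtk, pirk, PGRP-SB1, Drs, CG7296, Tsf1, mspo, Listericin, AttD, edin, Rel, PGRP-LF and DptB. In 29 of the 30 both scrambled c-di-GMP samples were above all mock samples. DmSTING replicate 1 was below all 4 mock samples in 24 and within their range in 6. DmSTING replicate 2 was above all 4 mock samples in 27 and below both scrambled c-di-GMP samples in 29. These counts are a description, since the same scrambled and mock samples entered the fit that chose the genes. At many of these genes the DmSTING c-di-GMP replicates were far apart, by 2.64 at PGRP-LB, 2.19 at Def and 1.60 at Mtk. A fit with 1 of these samples holds no estimate of that spread, so its calls there are too favourable.

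The difference between the knockdown effects with and without c-di-GMP was tested directly. Over both replicates 0 of 11009 genes were called (0.0%), 540 were below an unadjusted p of 0.05 (4.91%), and the smallest adjusted p was 0.988. Without DmSTING c-di-GMP replicate 2, 12 genes were called (0.109%), all with a lower effect under c-di-GMP, and without replicate 1 the count was 0, with 529 below an unadjusted p of 0.05. The 12 were PGRP-LB, Def, CG32373, Mtk, PGRP-SB1, Tsf1, mspo, Listericin, edin, AttD, PGRP-LF and yin, an oligopeptide transporter that falls outside the naming rule. For PGRP-LB the knockdown effects were -0.05 without c-di-GMP and -2.06 with it, a difference of -2.02 (SE 0.99, limma adjusted p = 0.988). That difference was -3.34 without replicate 2 and -0.69 without replicate 1. For Mtk the effects were 0.01 and -1.60, a difference of -1.61 (SE 0.61, limma adjusted p = 0.988). The Mtk difference was -2.41 without replicate 2 and -0.81 without replicate 1. Calls made without replicate 2 leave out the spread between the DmSTING c-di-GMP replicates.

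By unadjusted p, the leading genes of this difference over both replicates were not immune genes. CG10086 read 0.33 and 0.36 in scrambled c-di-GMP and -0.50 and -0.30 in DmSTING c-di-GMP, a knockdown effect of -0.75 against 0.20 under mock (limma adjusted p of the difference = 0.988). CG18234 had effects of -0.43 with c-di-GMP and 0.42 without it, and CG13577 of 0.21 and -0.49. For CG10086 and CG18234 both DmSTING c-di-GMP samples were below both scrambled ones.

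Other lower genes had DmSTING replicates closer to each other. The gene spirit, which encodes a serine protease upstream of Toll, read 0.16 and 0.55 against -0.28 and -0.54, a difference of -0.76 (SE 0.14, limma adjusted p = 0.236). Fie read 0.39 and 0.29 against -0.19 and -0.21, and the tetraspanin gene Tsp96F read 0.06 and 0.07 against -0.35 and -0.55. For spirit, Fie and Tsp96F the DmSTING samples were below the scrambled samples under mock as well, with differences of -0.33, -0.28 and -0.24, none of them called. IP3K1, an inositol trisphosphate kinase, read 0.49 and 0.67 against -0.41 and 0.02, with a wider gap between its DmSTING replicates.

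The naming rule picked genes with higher values after knockdown by small p or a wide gap between groups, which favours close replicates. None of the higher genes was called over both DmSTING replicates. CG15740 read -0.47 and -0.53 in scrambled samples and 0.34 and 0.17 in DmSTING samples, a difference of 0.76 (SE 0.09, limma adjusted p = 0.209), the smallest adjusted p after Sting. The mock samples of CG15740 ran from -0.01 to 0.12, so the scrambled c-di-GMP samples were below them and the DmSTING c-di-GMP samples above. CG15740, SPARC and CG34232 were the 3 genes called higher without DmSTING c-di-GMP replicate 2 (adjusted p = 0.0305, 0.0209 and 0.0289).

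SPARC, a basement membrane protein that binds collagen IV, read -0.78 and -0.81 in scrambled samples and 0.07 and -0.22 in DmSTING samples, a difference of 0.72 (SE 0.10, limma adjusted p = 0.236). The mock samples ran from -0.04 to 0.15, so the scrambled c-di-GMP samples were far below them and the DmSTING samples near them. Collagen IV itself is encoded by Col4a1 and vkg, both made by plasmatocytes. Col4a1 read -0.64 and -0.42 against -0.02 and -0.06, a difference of 0.49, and vkg, named outside the naming rule after its values were seen, read -0.89 and -0.46 against 0.00 and -0.04, a difference of 0.65 (adjusted p = 0.274). AdamTS-B, a secreted metalloprotease, was at 0.59 and Nplp2, a further gene of the plasmatocyte list, at 0.46. Of the 12 measured plasmatocyte markers 0 were called, 6 were above 0 and 6 below, and they ranged from -0.25 to 0.65. At an unadjusted p under 0.05, 3 were higher and 1 lower, beside 9.44% and 4.29% of all genes. The median of the list was 0.03, equal to that over all genes. Whether the markers were expressed at all cannot be read from centred values.

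The gene btn, a homeobox transcription factor, had the lowest values of these genes. It read -1.52 and -1.41 in scrambled c-di-GMP samples and -0.75 and -0.89 in DmSTING samples, with mock samples from 0.75 to 1.25. Both c-di-GMP groups were far below the mock samples, and the DmSTING samples were higher than the scrambled ones by 0.64 (SE 0.15, limma adjusted p = 0.274). CAHbeta, the beta carbonic anhydrase, was arranged alike, at -0.81 and -0.76 against -0.17 and -0.27, with mock samples from 0.17 to 0.65. The paired-box gene gsb instead returned to the mock range, at -0.48 and -0.79 against 0.01 and 0.17.

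**Figure D4:**
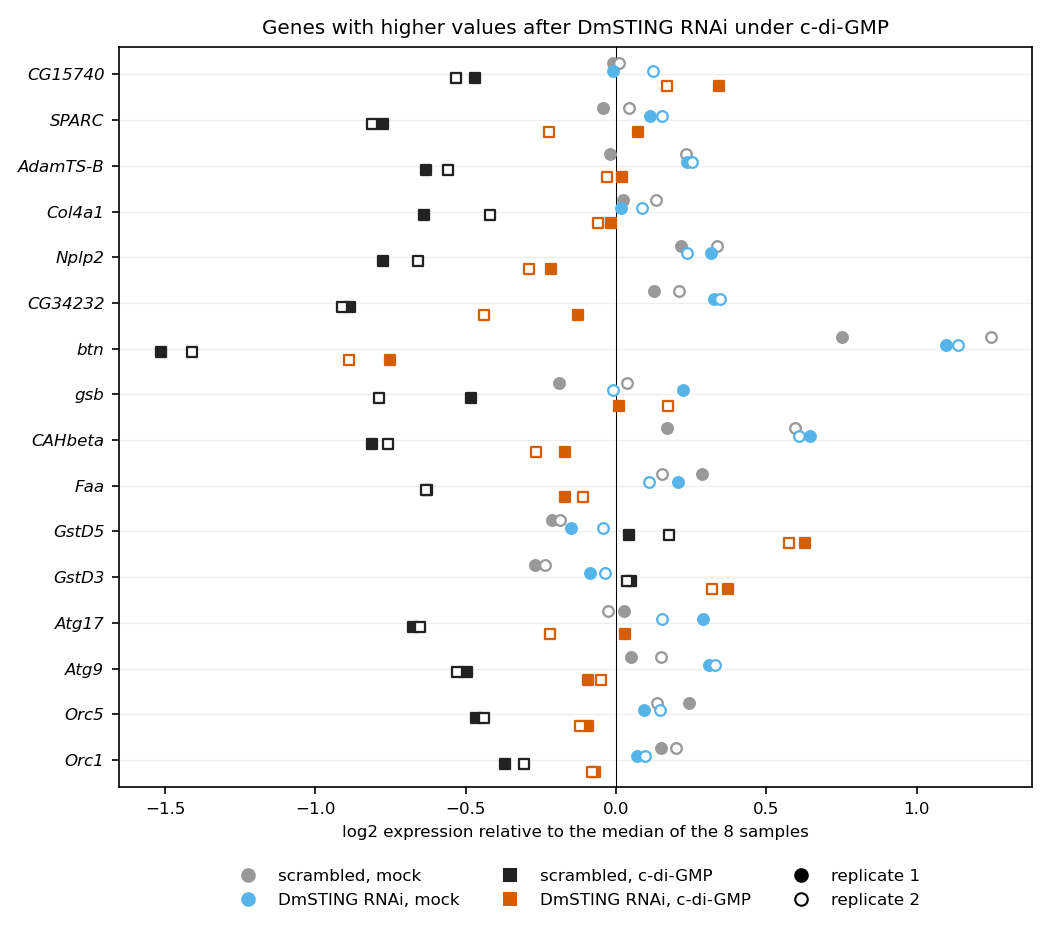
Log2 expression relative to the median of the 8 samples for genes with higher values after DmSTING RNAi under c-di-GMP, with 1 point per sample, coloured by group and filled for replicate 1 and open for replicate 2. The scrambled c-di-GMP samples are the lowest at every gene drawn except GstD5 and GstD3, and the DmSTING c-di-GMP replicates lie close together, at -0.75 and -0.89 for btn.

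In the metabolic and growth lists most differences were small. Counts of higher and lower genes in this paragraph are at an unadjusted p under 0.05. Over all genes 9.44% were higher and 4.29% lower at that level. GstD5 and GstD3, glutathione transferases of the delta class, read 0.04 and 0.18 against 0.63 and 0.58, and 0.05 and 0.04 against 0.37 and 0.32. Like CG15740, both glutathione transferases had DmSTING c-di-GMP samples above all other samples. Of the 15 measured genes of glutathione and redox metabolism 0 were called, 6 were higher and 2 lower at an unadjusted p under 0.05, and the median was 0.13. The largest difference of the list was in the other direction, at -0.63 for the sigma class transferase GstS1, which is named outside the rule and read 0.08 and 0.53 against -0.69 and 0.05. Autophagy had 4 higher and 0 lower of 21, although 13 members had a difference below 0 and the median was -0.04. The smallest p-values belonged to the scaffold protein Atg17 at 0.57 and the lipid scramblase Atg9 at 0.44. The replication and cell cycle list had 3 higher and 1 lower of 13, led by the origin recognition subunits Orc5 at 0.35 and Orc1 at 0.26. Ribosome biogenesis had 3 higher and 0 lower of 20, with a median of 0.10, and Surf6 at 0.23 and Fib, the methyltransferase fibrillarin, at 0.24 had the smallest p-values.

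The remaining lists lay near the centre. Small RNA machinery, the JNK pathway, the heat shock response and the unfolded protein response ranged from -0.22 to 0.22 and held 1 higher and 0 lower gene at an unadjusted p under 0.05 among 39 measured members. Markers of other cell types were also near it, with medians of 0.01 for 6 fat body, -0.10 for 6 neuron and -0.08 for 6 muscle genes and 0 called. The other blood cell lists had medians of 0.16 for 3 crystal cell and 0.10 for 6 lamellocyte genes, with 0 called and, at an unadjusted p under 0.05, 1 higher, the prophenoloxidase PPO3 at 0.37. The apoptosis list had 2 lower and 0 higher of 7 at that level, the initiator caspase Dronc at -0.26 and Strica at -0.19, and a median of 0.02. The 127 chemoreceptor genes, which S2 cells are not known to use, had a median of 0.00 and a range from -0.52 to 0.74. At an unadjusted p under 0.05, 8 of them were higher and 9 lower. Over all genes 9.44% were higher and 4.29% lower at that level.

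**Figure D5:**
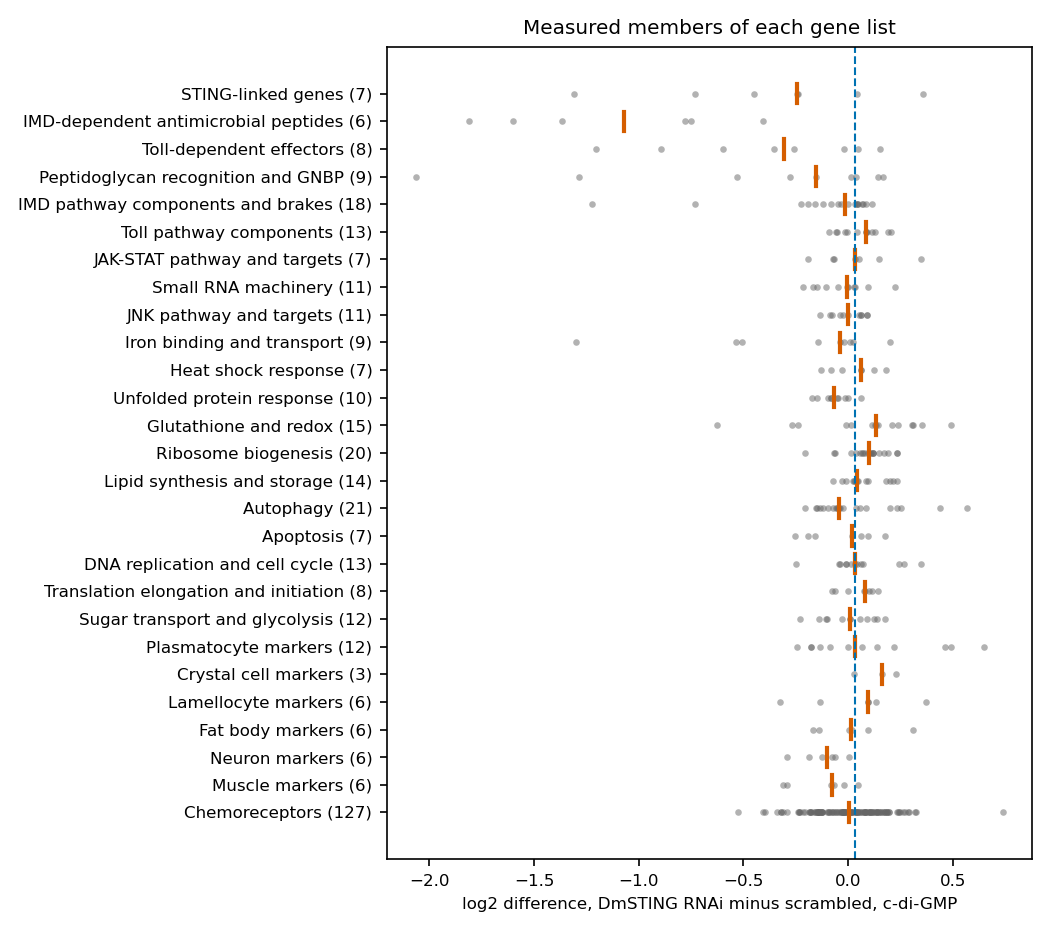
Log2 difference, DmSTING RNAi minus scrambled RNAi under c-di-GMP, for the measured members of each list, with their number in brackets. Each dot is a gene, each short bar the median of its list, and the dashed line the median of all 11009 genes at 0.03. The antimicrobial peptides stand at a median of -1.07, and the medians of the other lists lie between -0.30 and 0.16.

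The knockdown was also set beside the one without c-di-GMP, which used the other 4 samples. Under mock 355 genes were below an unadjusted p of 0.05 (3.22%), and 1 gene was higher and 2 lower by at least 0.5 log2 units, against 53 higher and 64 lower under c-di-GMP. The SD of the differences over genes was 0.111 without c-di-GMP and 0.171 with it. Replicates also differed more with c-di-GMP. The SD of their difference was 0.196 with DmSTING and 0.234 with scrambled dsRNA, against 0.119 and 0.166 under mock. The part of this replicate spread in the larger differences was not tested. Over the 11009 genes the 2 effects had a correlation of r = 0.226, as a description, since genes are not independent and array-wide shifts that follow the dsRNA enter both. Genes entirely higher with DmSTING dsRNA in both settings numbered 1066, which was 36.1% of those under c-di-GMP and 43.5% of the 2450 under mock (22.3%). Genes entirely lower in both numbered 472, which was 28.1% and 25.8% of the 2 lists, the mock list holding 1827 genes (16.6%).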

How the data were processed

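Total RNA of S2 cells was labelled with biotin and hybridised to 3' expression arrays, per the labels' protocols. The authors deposited 1 table of log2 values for 16718 probe sets and 8 samples, in which the median of each of the 16718 probe sets over the samples was within 1e-06 of 0. How probes were summarised and arrays scaled is not given in the sources used. Base 2 was assumed for the logarithm, which no source states, and folds and percentages depend on it.

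Probe sets were named from the platform annotation and checked against a RefSeq gene table. Of them 12339 named 1 gene, 367 several and 3888 none, and 124 were controls. The 11009 genes, 920 with several probe sets averaged, were fitted in R 4.3.3 by limma 3.58.1 (functions lmFit, contrasts.fit and eBayes) as 4 group means over all 8 samples, on 4 residual and 3.25 prior degrees of freedom, with Benjamini-Hochberg adjustment over all genes and calls at an adjusted p under 0.05. Adjusted p-values come from this model, and SE are its standard errors with n = 2 per group, except where another setting is named. Values for a named setting come from the fit of that setting, and a left-out sample leaves 1 in its group. The procedure was tested on simulated data. Precision is limited by the number of arrays, and centred values hold no signal over background.

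The members and the 27 gene lists were chosen with earlier results of these data known. Named genes are, per direction, the 10 called or else of smallest unadjusted p with a log2 difference of at least 0.5, the 10 with the widest gap between groups, those with the largest replicate differences or the strongest difference from the mock knockdown, Sting and its neighbours, the measured members of the STING, peptide, recognition and iron lists, and up to 4 called genes (otherwise the 2 of smallest p) from each other list. Calls under a left-out sample are listed outside this rule. Values are printed for only part of the 133 genes that the rule names. List members without printed values, such as PGRP-LA at 0.14 and Tsf3 at -0.53 under c-di-GMP, enter the list counts and medians. The alternatives were other scalings, probe set choices, spread estimates, thresholds, a replicate block, a fit of 4 samples and each sample left out. Same-numbered replicates of the 2 c-di-GMP groups deviated together with r = 0.289 over genes, and other pairs of groups with r from 0.00926 to 0.113. The main fit did not pair samples by number, so a part shared by the 2 c-di-GMP groups was not modelled there. A fit with the replicate number as a block is given below. No genome build is given, and no coordinates or sequences are printed.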

Additional observations from a re-analysis of the deposited data

How the results depend on the processing

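The count of called genes under c-di-GMP was 1 in most settings, 0 in a fit of the 4 samples alone, 0 after quantile normalization, 2 when probe sets were tested one by one (the second a control probe set), and between 0 and 34 when samples were left out in turn. The mock count of 1 became 0 after quantile normalization and 2 for single probe sets, and ran from 0 to 1 with samples left out: it was 0 without any 1 mock sample. The count for the difference of effects ran from 0 to 12, the 12 coming without DmSTING c-di-GMP replicate 2. For Sting the log2 change was -1.31 in the fit of 4 samples (adjusted p = 0.365), -1.12 after quantile normalization (adjusted p = 0.536), and from -1.37 to -1.26 with samples left out. With the replicate number as a block, 1 gene was called under c-di-GMP, 1 under mock and 0 for the difference, and Sting remained at -1.31 (adjusted p = 0.016). Of the 62 other named genes tracked, 21 became called without DmSTING c-di-GMP replicate 2 and 0 in any other setting. Their direction held in every setting except for 3 genes that were not called. With samples left out, CG13488 ran from -0.59 to 1.24, Srg2 from -0.68 to 0.19 and IKKbeta from -0.0059 to 0.0937, and IKKbeta was at -0.0059 after quantile normalization. The gene calls other than Sting under c-di-GMP were made only without DmSTING c-di-GMP replicate 2. That fit holds no estimate of the spread between the 2 DmSTING c-di-GMP samples.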

Other observations

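A control probe set without a gene name was lower in all 4 DmSTING arrays than in all 4 scrambled arrays. Under c-di-GMP it read 1.29 and 1.63 with scrambled and -1.17 and -1.17 with DmSTING dsRNA, and under mock 1.48 and 1.17 with scrambled and -1.44 and -1.37 with DmSTING dsRNA. Tested with all probe sets one by one, its log2 difference was -2.63 under c-di-GMP (limma adjusted p = 0.0024) and -2.73 under mock (limma adjusted p = 0.0018).

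The spike-in RNAs for hybridisation had per-array medians under c-di-GMP of 0.46 and 0.37 with scrambled dsRNA and -0.28 and -0.28 with DmSTING dsRNA. The 2 DmSTING c-di-GMP arrays, which differ at PGRP-LB and other genes, were thus alike in this measure. The difference between 3' and 5' probe sets, a sign of RNA quality, was for eIF-4a 0.12 and 0.17 in scrambled and -0.04 and 0.00 in DmSTING samples under c-di-GMP. For GAPDH it was 0.03 and 0.00 against -0.08 and -0.06, and for actin -0.10 and 0.13 against -0.03 and -0.08. The part of these shifts in the gene differences was not tested.

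Among the genes farthest apart between the scrambled c-di-GMP replicates was CG13488, at -0.62 and 1.21, which read 0.01 and 1.23 in the DmSTING c-di-GMP samples, so replicate 2 was the higher in both groups. The developmental receptor gene drl read 0.09 and 1.22 in the scrambled and -0.59 and -0.12 in the DmSTING c-di-GMP samples.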
